A study of Mus musculus with 10 samples.

Results

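The replication-dependent histone genes of the mouse were described across 10 RNA sequencing libraries, 5 from atrial and 5 from ventricular cardiomyocytes of wild-type animals. The labels give no age, strain, sex or treatment, and they do not say how the cardiomyocytes were isolated or whether each library came from its own animal, so p-values reflect only how these libraries vary, and some of that variation may be technical. Members were chosen by symbol, and 9 of the 25239 symbols begin with Hist1h to Hist4h. A further 60 symbols are the current names of genes whose older RefSeq name has that form, such as H2bc18 for Hist2h2bb, which gave a family of 69 genes. The family holds 6 H1, 19 H2A, 19 H2B, 12 H3 and 13 H4 genes. Of these, 55 belong to cluster 1 on chromosome 13, 10 to cluster 2 on chromosome 3, 3 to cluster 3 on chromosome 11 and 1 to cluster 4 on chromosome 6.

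Histone proteins H2A, H2B, H3 and H4 form the core around which DNA is wrapped, and H1 binds the linker DNA between cores. The replication-dependent genes are transcribed mostly in S phase, when new DNA needs packaging, and lie in clusters of small genes without introns. Their mRNAs are the known exception among messenger RNAs in animal cells: they end in a stem-loop and carry no poly(A) tail. The stem-loop binding protein Slbp and the U7 small nuclear RNP direct the cleavage just past the stem-loop. Variant histones such as H3.3 are made through the cell cycle from genes outside the clusters, with polyadenylated mRNAs. Total RNA was the molecule sequenced here, which does not require a tail.

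The stem-loop is the feature that sets these mRNAs apart, so its letters are shown for some of the genes whose models hold them. They were searched on the sense strand of GENCODE M21 transcript models, with the 2 bases after the first GG and the 2 before the last CC left free. The models of 35 of the 69 family genes held them. Those of Hist1h2al, H2bc18, H2ac20, H2ac21, H2bc15 and H2bc21, which are named below for their level or difference, did not. The models of H2bc18, H2bc15 and H2ac21 have 0 bases after the stop codon, so the letters could not be seen there. That of H2bc21 has 2192 such bases. Among genes with at least 100 annotated bases after the stop codon, 19 of 31 family genes (61.3%) and 1 of 20195 other genes (0.00495%) held the letters within these 100 bases. That 1 other gene was H2bfm, itself an H2B gene that the choice by symbol left out of the family. In the lines below, each 5′ to 3′ in DNA letters of the GRCm38 models, capitals mark the 16-base stem-loop and lower case the bases on either side.
H1f2: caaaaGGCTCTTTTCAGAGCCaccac
H1f4: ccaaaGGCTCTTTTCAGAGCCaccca
H2aw: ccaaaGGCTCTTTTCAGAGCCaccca
H2bc9: ccaaaGGCTCTTTTCAGAGCCactca
H2bc14: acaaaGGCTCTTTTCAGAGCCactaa
H4c4: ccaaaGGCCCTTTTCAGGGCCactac
H4c2: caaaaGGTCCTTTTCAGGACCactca
Hist1h2bp: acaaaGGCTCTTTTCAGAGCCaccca
The search fixed the loop and the stem's closing letters, and the free letters came in 3 forms: the form of H1f2 in 26 genes, that of H4c4 in 7 and that of H4c2 in 2. Among these models, the forms of H4c4 and H4c2 were found in H4 genes only.

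Many promoters of the family share letters as well. RefSeq promoters of 300 bases (GRCm38.p6, 250 bases before to 50 after the gene start) were available for 62 family genes. On either strand, the octamer ATTTGCAT, the letters known for histone H2B promoters, was found in 13 of the 62 (20.97%), against 1.75% of all 27025 promoters. The 13 were 7 of 18 H2A and 6 of 16 H2B promoters, with 0 of 6 H1, 0 of 10 H3 and 0 of 12 H4. Neighbouring H2A and H2B genes can lie close enough for their promoters to share bases. A single match may then count for both genes. CCAAT was found in 53 of 62 (85.5%), against 37.9% of all. It was in every H1, H2A, H2B and H3 promoter but in only 3 of 12 H4 promoters (25%). TATAAA was found in 35 of 62 (56.5%), against 14.2% of all, with 40% to 66.7% in each class. Shown are H2bc18, the member with the highest mean, and H2aw, the only member called higher in atrial libraries with the replicate number as a block. Both promoters are on the plus strand, at chr3:96269450-96269749 and chr11:58954435-58954734, and capitals mark the octamer and CCAAT on either strand.
H2bc18: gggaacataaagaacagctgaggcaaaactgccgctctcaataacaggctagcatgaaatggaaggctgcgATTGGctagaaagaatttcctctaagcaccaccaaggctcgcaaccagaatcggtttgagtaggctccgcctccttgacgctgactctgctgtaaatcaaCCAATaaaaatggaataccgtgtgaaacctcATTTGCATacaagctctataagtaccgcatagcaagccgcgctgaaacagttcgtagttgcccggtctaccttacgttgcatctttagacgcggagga
H2aw: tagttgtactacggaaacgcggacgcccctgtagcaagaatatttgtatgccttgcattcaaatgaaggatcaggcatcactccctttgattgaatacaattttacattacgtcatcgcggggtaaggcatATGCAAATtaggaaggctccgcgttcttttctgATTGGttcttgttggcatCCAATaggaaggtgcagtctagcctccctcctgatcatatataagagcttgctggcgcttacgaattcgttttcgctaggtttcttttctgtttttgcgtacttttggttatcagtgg
Each holds 1 octamer and 2 CCAAT matches and no TATAAA. These are matches of letters, not measured sites.

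The libraries held 1790402 to 4445287 reads in the 4 libraries of replicates 1 and 2 and 11163805 to 12842635 in the 6 of replicates 3 to 5. At 0 counts a gene may still have up to 3 reads, equal to between 1.70 and 10.4 normalized reads. The replicate numbers divide the libraries beyond depth: Rn45s, the ribosomal RNA precursor, took 0.215% to 0.480% of reads in replicates 1 and 2 and 23.1% to 29.8% in replicates 3 to 5, and atrial library 1 and ventricular library 1 had reads on 21576 and 19232 genes, against 15950 to 16618 in the other libraries. The labels do not name this division, which was first seen in these data, so p-values for it describe groups of libraries that were known to stand apart. All 10 atrial cardiomyocyte markers were higher in atrial libraries and 9 of 10 ventricular markers lower (limma, adjusted p under 0.05), and none of 10 general cardiomyocyte markers stood at 0. A mean of at least 10 normalized reads was required for a test, which left 12422 genes, 36 of the family among them. Another 25 family genes had reads but fell under that filter and 8 had none.

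The histone genes were much more abundant in replicates 1 and 2 than in replicates 3 to 5, in both chambers. Per 1000000 reads, the family as a whole took 1209.6, 1397, 184, 210.2 and 228 in atrial libraries 1 to 5, and 1186, 1173, 219, 217 and 229 in ventricular libraries 1 to 5. Replicates 1 and 2 lay between 1173 and 1397, far above the 184 to 229 of replicates 3 to 5, and exact 95% Clopper-Pearson intervals, which cover counting error only, spanned 1131 to 1435 and 176 to 237. With Rn45s reads taken out of the totals the values were 1176 to 1400 and 239 to 321 per 1000000. In normalized reads the family summed to 7407 ± 325 in replicates 1 and 2 and 1599 ± 178 in replicates 3 to 5 (SD, n = 4 and n = 6), 4.63-fold higher. In bulk libraries, fewer cells of a type and less RNA per cell cannot be told apart.

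Of the 36 family genes tested, 30 were higher in replicates 1 and 2 and 0 were lower (limma with chamber in the model, Benjamini-Hochberg adjusted p under 0.05), where 24.1% of all genes tested were called higher and 28.6% lower (52.7% in either direction). All 36 estimates were above 0, with a median log2 difference of 1.93 and a range of 0.04 to 4.40, beside a median of -0.04 over all genes tested. The filter takes the mean over all libraries, so genes high only in replicates 1 and 2 could pass through those values. Without the filter, 56 of the 61 members with reads had estimates above 0. Their median was then 1.26, beside 0.32 over all genes with reads. In 34 of the 61 members with reads, every library of replicates 1 and 2 exceeded every library of replicates 3 to 5, and in 1 (H2ac7) the reverse held, where such separation occurred in 9.77% and 9.30% of the 23008 genes with reads. The division of calls over all genes moved with the scaling: 45.7% of calls were higher in replicates 1 and 2 with the deposited scaling, 72.6% with equal totals, 31.9% with equal totals without Rn45s and 36.1% with TMM factors, and the median of all genes was -0.04, 0.27, -0.18 and -0.14. Under those same scalings the family kept medians of 1.93, 2.24, 1.79 and 1.84, with 30, 33, 29 and 30 members called higher and 0 lower. H2bc21, whose estimate was the lowest, fell below 0 with equal totals without Rn45s and with TMM factors, uncalled in each. Within atrial libraries alone 30 members were called higher and 0 lower, where 17.2% and 22.1% of all genes tested were. Within ventricular libraries alone 27 were called higher and 0 lower, where 19.9% and 25.3% were.

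**Figure D1:**
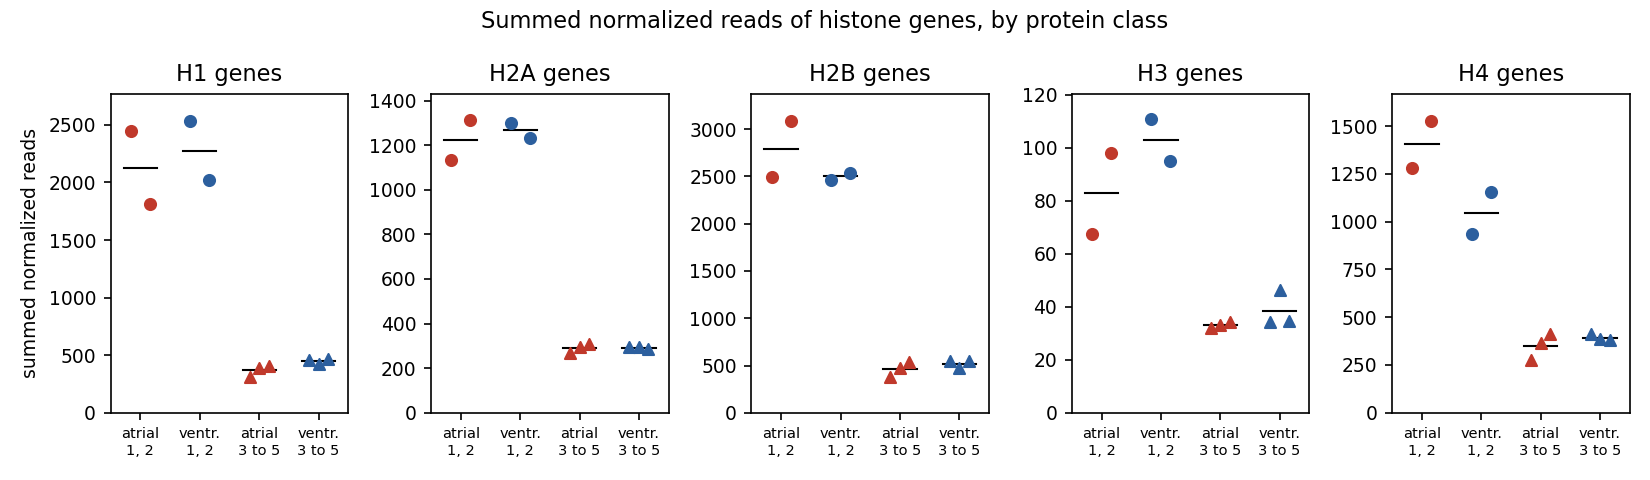
Summed normalized reads of the H1, H2A, H2B, H3 and H4 genes in each library (circles, replicates 1 and 2; triangles, replicates 3 to 5; red, atrial; blue, ventricular; lines, means; each vertical axis has its own range). In every class both chambers lie higher in replicates 1 and 2, from 2.61-fold for H3 to 5.39-fold for H1.

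The classes of histone moved by different amounts. Sums over class were 5.39-fold higher in replicates 1 and 2 for H1 and 5.38-fold for H2B, 4.26-fold for H2A, 3.29-fold for H4 and 2.61-fold for H3. The H3 genes had the lowest sums, at 67.6 to 111 normalized reads in replicates 1 and 2 and 31.8 to 46.1 in replicates 3 to 5, with only 2 of 12 members passing the filter. Called higher were 5 of 5 tested H1 genes, 7 of 9 H2A, 10 of 12 H2B, 2 of 2 H3 and 6 of 8 H4, with medians of 2.29, 1.61, 2.55, 1.36 and 1.30 on the log2 scale. By locus, the sums were 7.05-fold higher for cluster 2, 4.35-fold for cluster 1, 3.08-fold for H4f16, the only gene of cluster 4, and 2.19-fold for cluster 3. These differences among classes and clusters were not themselves tested. The annotated 3′ end did not separate the genes: the median difference was 1.70 for the 6 tested genes whose model ends within 60 bases after the stem-loop, 2.05 for the 9 whose model runs on for more than 100 bases, and 1.75 for the 21 with no stem-loop letters in the model, and the range of each overlapped the others. The last group mixes models that stop at the stop codon, such as H2bc18, with longer ones, such as H2bc21.

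The H1 genes encode the linker histones. H1f2 had 1171, 713, 172, 197 and 205 normalized reads in atrial libraries 1 to 5, and 1256, 924, 225, 196 and 226 in ventricular libraries 1 to 5. Both pairs of replicates 1 and 2 stood well above all 6 libraries of replicates 3 to 5, and the chambers overlapped. Its mean was 1016 ± 246 normalized reads in replicates 1 and 2 and 203 ± 20.5 in replicates 3 to 5 (SD, n = 4 and n = 6), 4.996-fold higher (log2 2.29 ± 0.14, adjusted p = 2.19e-07). H1f4 had 765, 534, 59.1, 91.4 and 79.2 normalized reads in atrial libraries 1 to 5, and 605, 489.9, 80.6, 92.2 and 84.6 in ventricular libraries 1 to 5. It showed the largest difference of the H1 genes, 7.38-fold (log2 2.86 ± 0.15, adjusted p = 9.50e-08). H1f3, H1f5 and H1f1 averaged 228, 232 and 120.3 normalized reads in replicates 1 and 2, and 55.1, 48.3 and 20.2 in replicates 3 to 5. They were 4.14-, 4.81- and 5.96-fold higher, all called. H1f6, the testis linker histone, averaged 7.40 and 0.829 normalized reads, under the filter.

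Among the H2A genes Hist1h2al, 1 of the genes found by its symbol, differed most. It lies at chr13:51200084-51203066 (GRCm38), where RefSeq lists a transcribed pseudogene. It had 284, 452, 19.3, 20.05 and 15.4 normalized reads in atrial libraries 1 to 5, and 408, 441, 19.2, 12.7 and 19.8 in ventricular libraries 1 to 5. Replicates 1 and 2 were all at 284 or above and replicates 3 to 5 all far below, at 20.05 at most, with no order between chambers. The means were 396 ± 77.1 normalized reads in replicates 1 and 2 and 17.7 ± 2.99 in replicates 3 to 5 (SD, n = 4 and n = 6), 22.3-fold higher (log2 4.40 ± 0.18, adjusted p = 1.76e-08), the largest difference of the family. Its model of 339 bases is 99.4% identical (337 bases) to H2ac18 and H2ac19, 2 cluster 2 genes that stand at 0 in all 10 libraries. It is 98.2% identical (333 bases) to H2ac20, a cluster 2 gene that has reads and is described below. Only 32.4% of the 50-base stretches of Hist1h2al occur in no other gene model, so reads of these copies cannot be told apart with certainty.

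The cluster 2 genes H2ac21 and H2ac20, neighbours on chromosome 3, encode canonical H2A proteins. H2ac21 had 53.8, 64.8, 2.27, 3.54 and 3.86 normalized reads in atrial libraries 1 to 5, and 107, 112, 6.82, 6.01 and 6.80 in ventricular libraries 1 to 5. It was 17.3-fold higher in replicates 1 and 2 (log2 3.86 ± 0.22, adjusted p = 1.71e-07). H2ac20 had 239, 216, 28.4, 28.3 and 35.4 normalized reads in atrial libraries 1 to 5, and 315, 256, 35.3, 42.1 and 43.2 in ventricular libraries 1 to 5. The library sets did not overlap, and the difference was 7.23-fold (log2 2.82 ± 0.13, adjusted p = 2.74e-08). H2aw, in cluster 3 at chr11:58954685-58955192, moved less, by 2.22-fold (log2 1.17 ± 0.11, adjusted p = 5.61e-06). H2ac15, H2ac10 and H2ac13 were 5.48-, 3.01- and 1.98-fold higher, all called, while H2ac4 (1.59-fold, adjusted p = 0.0717) and H2ac12 (1.29-fold, adjusted p = 0.517) were not. H2ac4 was called higher with equal totals and by edgeR and DESeq2.

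**Figure D2:**
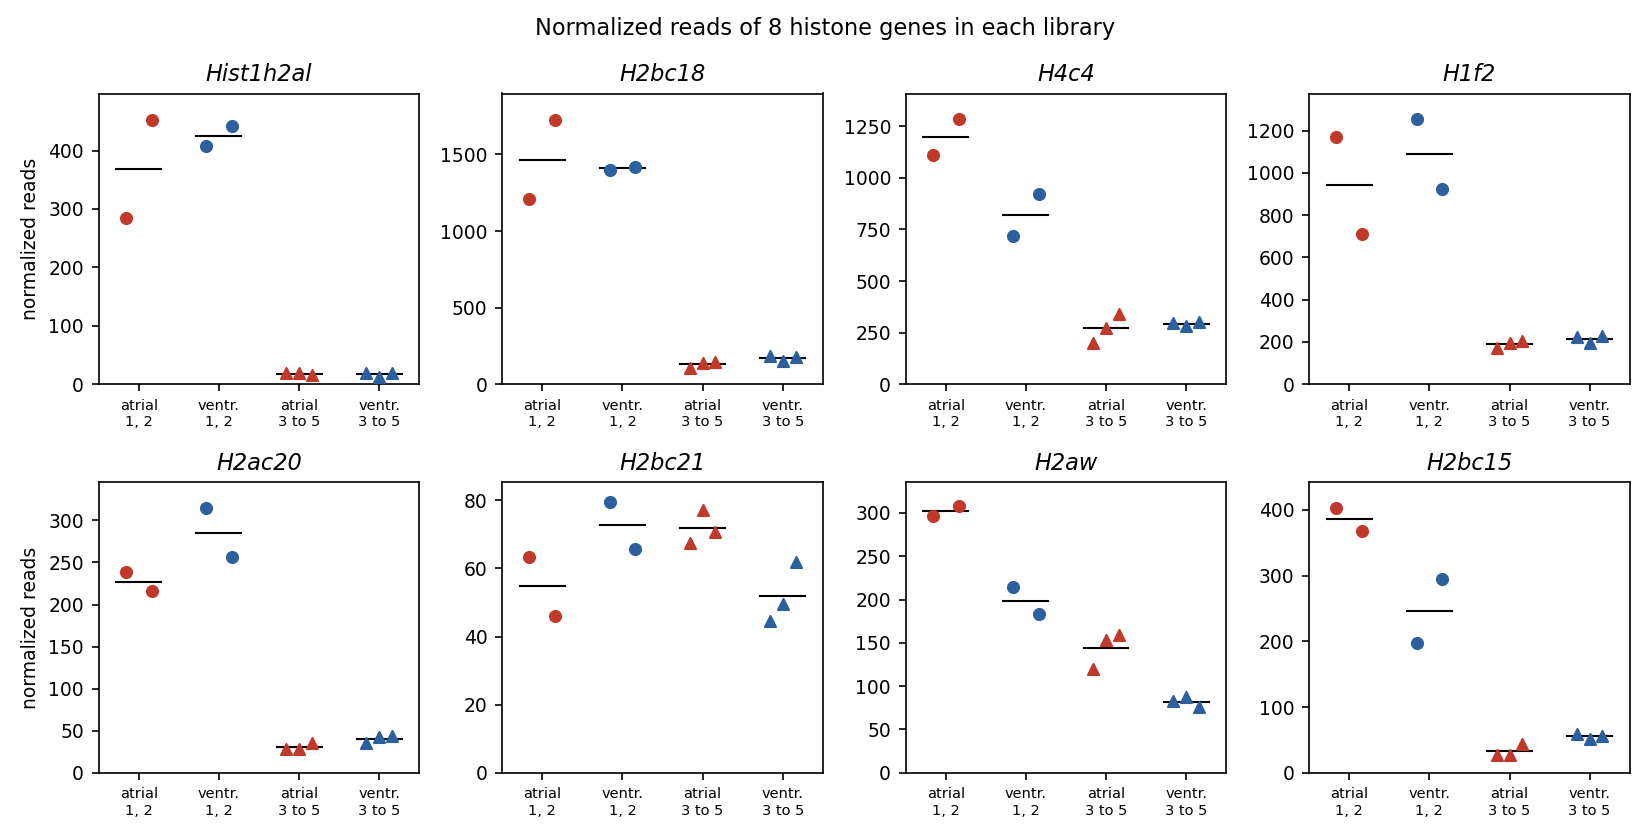
Normalized reads of 8 histone genes in each library (circles, replicates 1 and 2; triangles, replicates 3 to 5; red, atrial; blue, ventricular; lines, means; each vertical axis has its own range from 0). H2bc21 is at a like level in both library sets, while the other 7 genes are higher in replicates 1 and 2, and H2aw is higher in atrial than in ventricular libraries within each set.

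H2bc18 (older name Hist2h2bb, chr3:96269700-96270192) had the highest mean of the family. It had 1207, 1726, 105, 139 and 146 normalized reads in atrial libraries 1 to 5, and 1398, 1419, 183, 149.7 and 181 in ventricular libraries 1 to 5. The 4 libraries of replicates 1 and 2 were all at 1207 or above and the other 6 all at 183 or below, and among these 6 the 3 atrial libraries lay below the 3 ventricular ones. The means were 1437 ± 215 normalized reads in replicates 1 and 2 and 151 ± 29.3 in replicates 3 to 5 (SD, n = 4 and n = 6), 9.55-fold higher (log2 3.26 ± 0.14, adjusted p = 2.11e-08). Its share of family reads was 16.3% to 22.0% in replicates 1 and 2 and 8.28% to 10.6% in replicates 3 to 5, a measure that no library scaling alters. H2bc15, H2bc9, H2bc13 and H2bc14 were 7.19-, 7.34-, 7.12- and 6.61-fold higher, and H2bc7, H2bc12 and H2bc6 6.45-, 6.53- and 6.01-fold, all called. H2bc4 and H2bc3 moved less, by 2.38- and 3.12-fold, also called. Only 13.6% of the 50-base stretches of H2bc15 and 17.2% of those of H2bc13 occur in no other gene model, so their reads are uncertain.

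H2bc21 (Hist2h2be, annotated over chr3:96221072-96223738) was the exception among the abundant members. It had 63.4, 46.1, 67.6, 77.2 and 70.8 normalized reads in atrial libraries 1 to 5, and 79.6, 65.8, 44.6, 49.4 and 61.8 in ventricular libraries 1 to 5. Within atrial libraries replicates 1 and 2 lay below replicates 3 to 5 (log2 -0.40), and within ventricular libraries they lay above them (log2 0.48). Pooled over chambers the library sets overlapped, at 63.7 ± 13.8 normalized reads in replicates 1 and 2 and 61.9 ± 12.7 in replicates 3 to 5 (SD, n = 4 and n = 6; log2 0.04 ± 0.20, adjusted p = 0.874). All of its 50-base stretches are found in no other gene model. H2bc8 had an estimate of log2 0.78 ± 0.31 and was not called in the main fit (adjusted p = 0.0559 by limma). It was called higher with equal totals and by edgeR and DESeq2. The same held without atrial replicate 3 and without ventricular replicate 2 or 5.

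H4 genes all encode the same core histone. H4c4 had 1112, 1287, 199, 275 and 339 normalized reads in atrial libraries 1 to 5, and 716, 924, 294, 283 and 304 in ventricular libraries 1 to 5. All 4 libraries of replicates 1 and 2 exceeded the others, by 3.58-fold on average (log2 1.82 ± 0.17, adjusted p = 7.14e-06). H4c6, H4f16, H4c14, H4c2 and H4c1 were 4.48-, 3.08-, 2.60-, 2.61- and 2.30-fold higher and called. H4c12 (log2 0.86, adjusted p = 0.0909) and H4c8 (log2 0.31, adjusted p = 0.45) were not. H4c12 was called higher with equal totals and by DESeq2. The 2 tested H3 genes, H3c3 and H3c6, averaged 27.3 and 18.2 normalized reads in replicates 1 and 2, and 8.21 and 8.72 in replicates 3 to 5. They were 3.33- and 2.09-fold higher, with adjusted p = 0.00136 and 0.0289 by limma. The call of H3c6 was lost with equal totals without Rn45s, within either chamber alone, and without atrial replicate 2 or 4 or ventricular replicate 1, 3 or 5.

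**Figure D3:**
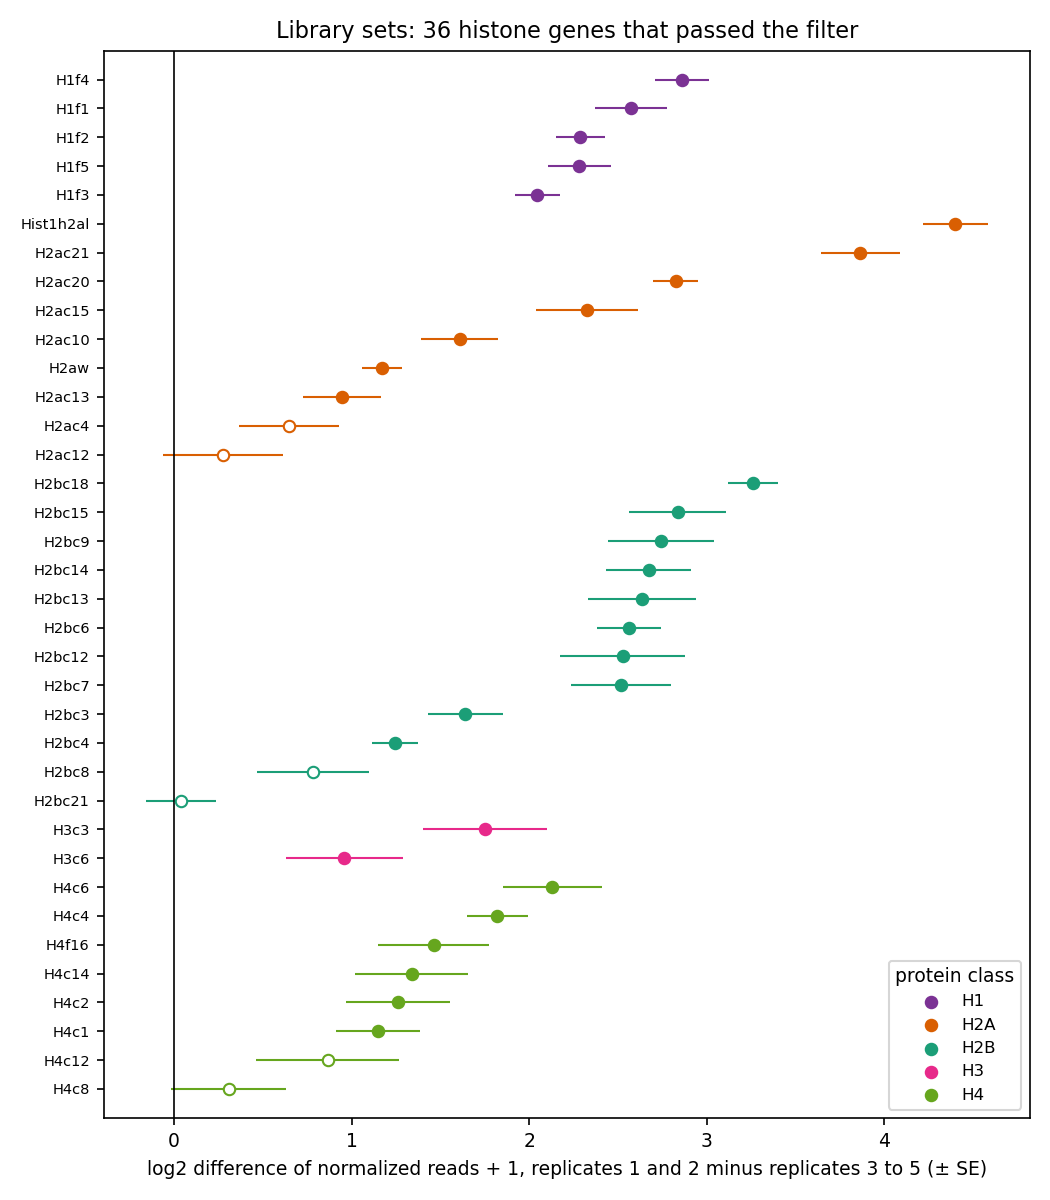
Difference between library sets for the 36 histone genes tested, as log2(normalized reads + 1) in replicates 1 and 2 minus replicates 3 to 5 with SE, grouped and coloured by protein class. Filled points were called at an adjusted p under 0.05 by limma (30 genes) and open points were not (6 genes), and all lie right of 0.

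Of the 9 genes whose symbol begins with Hist1h, only Hist1h2al passed the filter. Hist1h2bp, an H2B gene at chr13:21787483-21801561, had 15.2, 7.20, 1.70, 0.590 and 3.86 normalized reads in atrial libraries 1 to 5, and 20.8, 7.31, 2.48, 3.34 and 3.71 in ventricular libraries 1 to 5. It was higher in every library of replicates 1 and 2, and without the filter it was called (log2 1.88, adjusted p = 0.00502 by limma), so that 2 of the 5 members with reads were called higher, where 20% of the 23008 genes with reads were. Hist1h2an ranged from 0 to 11.5 normalized reads in replicates 1 and 2 and from 2.95 to 4.94 in replicates 3 to 5. Hist1h4n and Hist1h4m did not exceed 4.87 and 2.88 in any library. Hist1h2ao, Hist1h2ap, Hist1h2bq and Hist1h2br stood at 0 throughout, as did H2ac18, H2ac19, H3c14 and H3c15. A median of 6.71% of the 50-base stretches of these 8 genes occur in no other gene model, against 50.7% for the 25 genes with reads under the filter and 59.8% for the 36 tested. Among the 8, H3c14 at 65.3% and H3c15 at 36.5% had the highest shares. Why these genes stood at 0 was not tested.

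H2A and H2B genes often stand as neighbours, and 13 such pairs in the family lie less than 400 bases apart. Members of a pair did not always move together. H2ac20 and H2bc21 are 191 bases apart on chromosome 3 and differed by 7.23- and 1.03-fold between library sets. H2ac7 and H2bc7 are 173 bases apart on chromosome 13. H2bc7 was 6.45-fold higher in replicates 1 and 2, while H2ac7 had 2.76, 1.44, 9.66, 6.49 and 5.15 normalized reads in atrial libraries 1 to 5, and 0, 2.44, 12.4, 14.03 and 9.27 in ventricular libraries 1 to 5. Every library of replicates 1 and 2 was below every other library for H2ac7 (log2 -2.08, adjusted p = 0.00321 by limma without the filter).

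H2ac11 and H2bc11, 248 bases apart, likewise averaged 2.62 and 11.1 normalized reads in replicates 1 and 2 and 9.85 and 3.81 in replicates 3 to 5. H2ac11 was called lower without the filter (log2 -1.70, adjusted p = 0.0211 by limma) and H2bc11 was not called (adjusted p = 0.0712). Without the filter, 37 of the 61 members with reads were called higher and 2 lower, these 2, where 20% of genes were called higher and 14.8% lower. Of the 11 pairs with reads for both genes, the H2B gene had the larger difference in 7, the H2A gene in 3, and 1 pair was equal. The equal pair, H2ac1 and H2bc1, had 1 read for each gene over all libraries. H2bu1-ps, paired with H2aw, had 9 reads. Reads of H2ac7 and H2ac11 are few, and 32.9% and 21.1% of their 50-base stretches occur in no other gene model. The difference between neighbours was not tested.

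**Figure D4:**
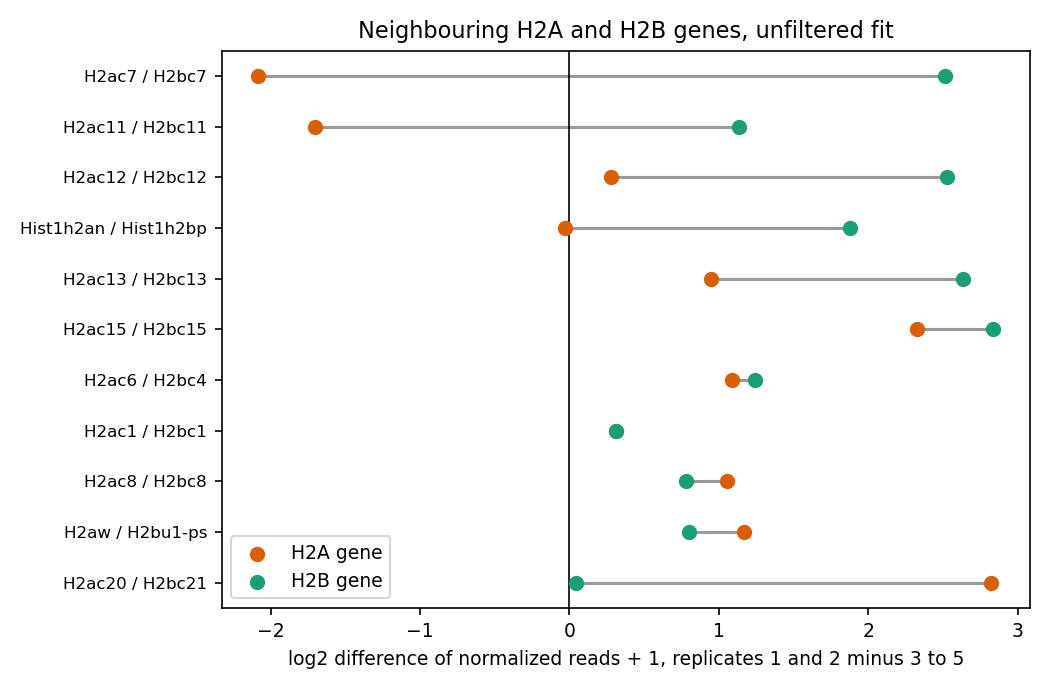
Difference between library sets for the H2A (orange) and H2B (green) gene of each of 11 neighbouring pairs, as log2(normalized reads + 1) in replicates 1 and 2 minus replicates 3 to 5 without the filter. The pairs of H2ac7 and H2ac11 lie on both sides of 0, the pair of H2ac20 has the H2A gene far higher than H2bc21, and the points of H2ac1 and H2bc1 coincide.

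The listed histone genes outside the clusters, most of them known for mRNAs with tails, moved in both directions. Of 11 tested, 5 were called higher and 3 lower in replicates 1 and 2, where 24.1% and 28.6% of all genes tested were. The median of the list was 0.05. Summed, the list had 5562 to 7003 normalized reads in replicates 1 and 2 and 3681 to 4373 in replicates 3 to 5, 1.48-fold higher. H3f3b, which encodes the variant H3.3, averaged 1919 ± 422 normalized reads in replicates 1 and 2 and 893 ± 51.2 in replicates 3 to 5 (SD, n = 4 and n = 6; log2 1.08 ± 0.12, adjusted p = 2.15e-05). H1f0, the linker histone that accumulates in cells that no longer divide, was 1.79-fold higher (log2 0.84 ± 0.08, adjusted p = 4.23e-06). H1f10 went the other way, at 4.27 ± 3.48 normalized reads in replicates 1 and 2 and 40.4 ± 6.68 in replicates 3 to 5 (SD, n = 4 and n = 6; log2 -3.36 ± 0.51, adjusted p = 0.000207). Macroh2a1 and Macroh2a2, the large H2A variants, had log2 differences of -0.62 and -0.39, both called. The counts of this list moved with scaling, to 7 higher and 1 lower with equal totals and to 3 higher and 4 lower with equal totals without Rn45s. Of all 12422 genes tested, 5187 were higher and 1955 lower with equal totals, and 2094 and 4474 with equal totals without Rn45s.

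Of the 18 tested genes for processing and decay of histone mRNAs, 3 were higher and 4 lower in replicates 1 and 2, with a median of 0.03. Of all genes tested, 24.1% were called higher and 28.6% lower. Slbp passed no test (log2 0.31 ± 0.26, adjusted p = 0.351). Higher were Lsm10, of the U7 RNP, Coil, the Cajal body protein coilin, and Ncbp1, of the cap-binding complex, by log2 0.95, 0.76 and 0.22. Lower were the uridylyltransferase Tut4, the helicase Upf1, the cap-binding subunit Ncbp2 and the exonuclease Eri1, which act on RNA turnover or the cap, at log2 -0.75, -0.50, -0.86 and -0.58. The list counted 9 higher and 2 lower with equal totals, and 2 higher and 8 lower with equal totals without Rn45s. For all 12422 genes tested those counts were 5187 and 1955, and 2094 and 4474. The RNA of the U7 particle itself, Rnu7, stood at 0 in all libraries.

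Genes of DNA replication lay mostly in the opposite direction from the histone genes. Of 29 S phase genes tested, 3 were higher and 17 lower in replicates 1 and 2, where 24.1% and 28.6% of all genes tested were. The median of the list was -0.41. Lig1, the ligase that joins replication fragments, averaged 86.6 ± 20.7 normalized reads in replicates 1 and 2 and 255 ± 20.9 in replicates 3 to 5 (SD, n = 4 and n = 6; log2 -1.57 ± 0.14, adjusted p = 3.46e-06). Mcm4, of the replicative helicase, averaged 136 ± 50.98 normalized reads in replicates 1 and 2 and 306 ± 14.6 in replicates 3 to 5 (SD, n = 4 and n = 6; log2 -1.24 ± 0.19, adjusted p = 0.000278). Chaf1a, of the complex that loads new H3 and H4 onto DNA, had a log2 difference of -1.23. With equal totals the counts were 4 higher and 8 lower, with a median of -0.10, and with equal totals without Rn45s 0 higher and 18 lower. Of 20 genes of G2 and mitosis, 4 were higher and 5 lower, with a median of 0.06. With equal totals 11 were higher and 3 lower, with a median of 0.37. With equal totals without Rn45s 2 were higher and 7 lower, with a median of -0.09. Of all 12422 genes tested, 5187 were higher and 1955 lower with equal totals, and 2094 and 4474 with equal totals without Rn45s. The medians over all genes were 0.27 and -0.18.

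Of 7 tested RNAs of other kinds known to occur without a poly(A) tail, 5 were higher in replicates 1 and 2 and 0 lower. Of all genes tested, 24.1% were called higher and 28.6% lower. The median of the 7 was 1.35, and their counts were the same under the 3 other scalings. Rpph1, the RNA of RNase P, averaged 4026 ± 537 normalized reads in replicates 1 and 2 and 597 ± 68.4 in replicates 3 to 5 (SD, n = 4 and n = 6), 6.75-fold higher (log2 2.75 ± 0.11, adjusted p = 1.21e-08). Rmrp, the RNA of RNase MRP, was 5.93-fold higher, Rprl3, a copy of the RNase P RNA, 5.55-fold, and Rnu11, a small nuclear RNA of the minor spliceosome, 2.60-fold. Malat1, a nuclear RNA whose end is a triple helix, was 1.79-fold higher. Rnu12 and Neat1 were not called (log2 -0.15 and 0.61). Rn45s went the other way (log2 -6.77 ± 0.23, adjusted p = 2.15e-08), and so did Lars2, a symbol to which ribosomal RNA reads are often assigned in mouse (log2 -5.59).

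Markers of cell types also moved with the library sets, where 24.1% of all genes tested were called higher and 28.6% lower. Of 10 general cardiomyocyte markers, 5 were higher in replicates 1 and 2 and 3 lower. Their sums were 485918 to 878624 normalized reads in replicates 1 and 2 and 398340 to 479134 in replicates 3 to 5. Of 10 atrial cardiomyocyte markers 2 were higher and 2 lower, and of 10 ventricular ones 5 were higher and 2 lower. Endothelial markers were called higher in replicates 1 and 2 for 6 of 9 tested of 10 listed, and their sums ranged from 275 to 3473 normalized reads in replicates 1 and 2 and 469.7 to 994 in replicates 3 to 5. All 3 tested of 8 erythroid markers were higher (sums of 285 to 945 and 36.6 to 196), while Hba-a1, Hba-a2, Hbb-bs and Hbb-bt stood at 0. Of 14 leukocyte markers 2 of 3 tested were higher (sums of 107 to 218 and 25.4 to 96.00). Fibroblast markers were lower for 6 of 10 (sums of 6221 to 23126 and 32237 to 52536) and epicardial markers for 5 of 9 (sums of 799 to 7556 and 2223 to 6079). The part of these cells, of depth and of ribosomal RNA in the histone difference was not tested.

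Between chambers, no histone gene passed the test over all 10 libraries. The family summed to 3952 ± 3358 normalized reads in atrial and 3893 ± 3014 in ventricular libraries (SD, n = 5 each), a ratio of 1.02. Of the 36 members tested 0 were called, against 14.7% of all genes tested (8.12% higher and 6.56% lower in atrial libraries). None reached an unadjusted p under 0.05 by limma, and edgeR and DESeq2 on the recovered reads called 0 as well. The median log2 difference, atrial minus ventricular, was -0.20, beside -0.01 over all genes tested. This median turned with single libraries: it was -0.57 without atrial replicate 1, 0.07 without atrial replicate 3, 0.11 without ventricular replicate 1 and 0.07 without ventricular replicate 2, and by edgeR it was -0.01. The library sets widen the spread within each chamber here. Markers of other cells differed between chambers as well: 7 of 9 epicardial markers were higher in atrial libraries and 0 lower. Their sums were 3150.2 to 7556 normalized reads in atrial and 799 to 3075 in ventricular libraries. Of 10 smooth muscle markers 3 were lower and 0 higher, and of 10 fibroblast markers 3 were lower and 1 higher. Of 9 endothelial markers tested 2 were higher and 0 lower. The part of these cells in the values below was not tested.

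With the replicate number as a block, 1 member was called higher in atrial libraries and 4 lower by limma, where 16.3% and 16% of all genes tested were (32.3% in either direction). The member called higher was H2aw, which had 297, 308, 119.9, 153 and 159 normalized reads in atrial libraries 1 to 5, and 215, 183, 82.4, 87.5 and 75.4 in ventricular libraries 1 to 5. The atrial library was the higher at each of the 5 replicate numbers, and the library set made the pooled groups overlap (log2 0.72 ± 0.11, adjusted p = 0.00141 with the block; log2 0.72 ± 0.37, adjusted p = 0.255 without it). H2aw was 1.52-fold higher in atrial libraries within replicates 1 and 2, and 1.76-fold within replicates 3 to 5. It shares bases with Trim17, which had 20.7, 11.5, 7.38, 8.25 and 9.01 normalized reads in atrial libraries 1 to 5, and 10.4, 12.2, 3.72, 4.01 and 4.94 in ventricular libraries 1 to 5. The strand setting of the counting is not given in the sources used here, so reads of H2aw and Trim17 cannot be told apart with certainty. H2bu2, an H2B gene of the same cluster at chr11:58948911-58949372, had 25 reads in the 3 atrial libraries of replicates 3 to 5 and 4 reads in the 3 ventricular ones, too few for the filter.

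The 4 called lower with the block were H2ac21 (log2 -0.87 ± 0.23, adjusted p = 0.0212), H1f3 (log2 -0.49 ± 0.13, adjusted p = 0.0187), H2ac20 (log2 -0.36 ± 0.11, adjusted p = 0.0378) and H3c3 (log2 -1.09 ± 0.34, adjusted p = 0.0404). H1f3 had 203, 183, 35.8, 45.99 and 54.1 normalized reads in atrial libraries 1 to 5, and 273, 253, 70.6, 60.8 and 63.01 in ventricular libraries 1 to 5. The ventricular library was higher at every replicate number. H3c3 had 13.8, 31.7, 2.27, 4.72 and 5.15 normalized reads in atrial libraries 1 to 5, and 34.6, 29.2, 10.5, 16.7 and 9.88 in ventricular libraries 1 to 5, with the atrial library above the ventricular at replicate 2 alone. With the library set as a term in place of the block, 1 member was higher and 5 lower, H1f1 being the added one, where 16% and 15.8% of all genes were (31.8% in either direction).

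Within replicates 3 to 5 alone, 14 members were called, 2 higher and 12 lower in atrial libraries, where 26.2% and 26.6% of all genes were (52.8% in either direction), and the median over the family was -0.31. The 2 higher were H2aw (log2 0.80, adjusted p = 7.24e-07) and H2bc21 (log2 0.47, adjusted p = 0.00452). The 12 lower were H1f1, H1f3, H1f5, H2ac4, H2ac10, H2ac21, H2bc14, H2bc15, H2bc18, H3c3, H4c6 and H4c12, among them H3c3 (log2 -1.42, adjusted p = 0.000734), H1f1 (log2 -0.87, adjusted p = 0.00131), H2bc15 (log2 -0.78, adjusted p = 0.000407) and H2bc18 (log2 -0.41, adjusted p = 0.00587). In the fit within replicates 3 to 5, 8 of 10 fibroblast markers were lower and 1 higher, with a median of -1.24. Of 10 smooth muscle markers 7 were lower and 2 higher, and of 9 epicardial markers 8 were higher and 1 lower. Of 29 S phase genes 9 were lower and 0 higher, and of 20 genes of G2 and mitosis 7 were lower and 2 higher. The part of these cells in the histone calls was not tested. Within replicates 1 and 2 alone 0 members were called, where 5.14% of all genes were, with a median of -0.07. That fit had 2 libraries a chamber.

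**Figure D5:**
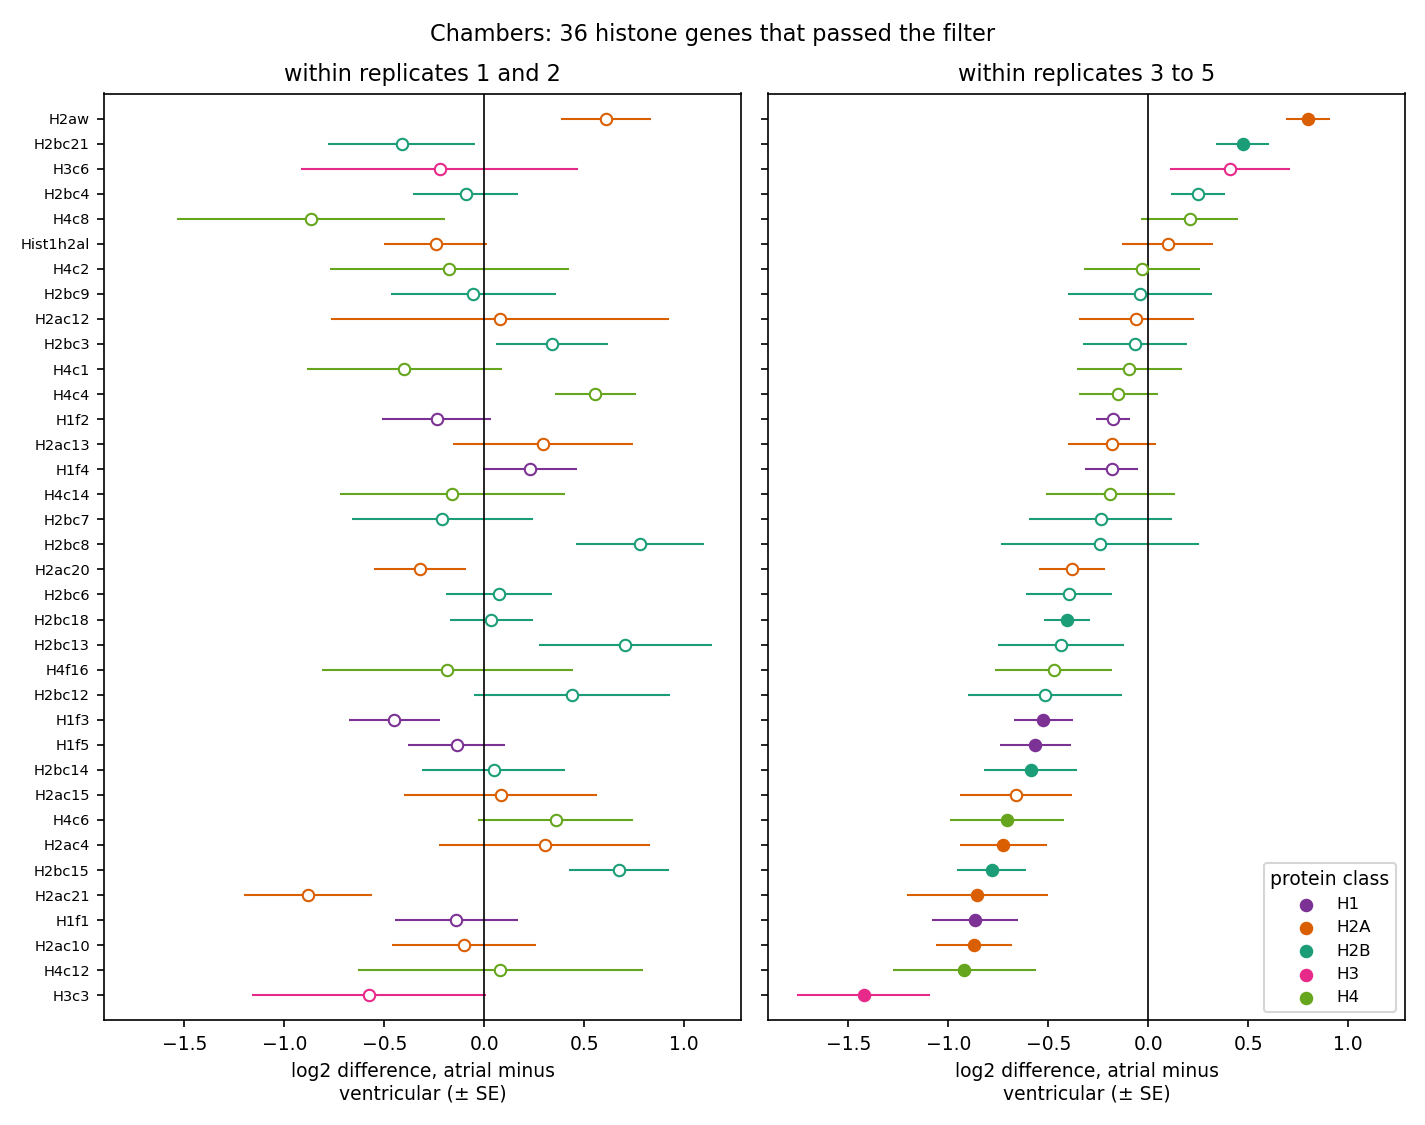
Difference between chambers for the 36 histone genes tested, as log2(normalized reads + 1), atrial minus ventricular, with SE, fitted within replicates 1 and 2 (left) and within replicates 3 to 5 (right), coloured by protein class. Filled points were called by limma: 0 on the left, 14 on the right, of which H2aw and H2bc21 lie above 0 and 12 below.

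The size of the chamber difference itself differed between library sets for 1 of the 36 members, H2bc15, where 5.21% of all genes tested were called. H2bc15 (Hist1h2bn) had 403, 368, 26.7, 27.1 and 43.8 normalized reads in atrial libraries 1 to 5, and 197, 295, 58.9, 51.5 and 55.6 in ventricular libraries 1 to 5. In replicates 1 and 2 both atrial libraries were above both ventricular ones, and in replicates 3 to 5 all 3 atrial libraries were below all 3 ventricular ones. Atrial over ventricular, the means differed 1.57-fold in replicates 1 and 2 and 0.588-fold in replicates 3 to 5. The effect in replicates 1 and 2 minus that in replicates 3 to 5 was log2 1.46 ± 0.33 (adjusted p = 0.034 by limma). This call was near the threshold. It was lost without atrial replicate 3 or 4, or without ventricular replicate 3, 4 or 5. The adjusted p by limma was then 0.082 to 0.0926, with log2 values of 1.34 to 1.51. Without atrial replicate 1 or ventricular replicate 1 the log2 value was 1.39 and 1.17, each with 1 library left in a group. The call held without atrial replicate 5 and under the 3 other scalings. It also held by edgeR (log2 1.40, adjusted p = 0.0171) and by DESeq2 (log2 1.40, adjusted p = 0.00154). H2bc21 had the opposite pattern, atrial lower in replicates 1 and 2 and higher in replicates 3 to 5, and its difference between effects passed no test (log2 -0.89, adjusted p = 0.115).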

How the data were processed

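RNA was sequenced from 5 atrial and 5 ventricular cardiomyocyte libraries. Per the labels' protocols, extraction was with Trizol and column cleaning, and the ScriptSeq v2 library kit was used, which primes RNA at random. Trimmomatic, HISAT2 and featureCounts on GRCm38 (mm10) are named in the submitters' processing notes. Tool versions, annotation and strand setting were not given in the sources used here.

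Each file holds a signal for each gene: per the file headers, a count of reads that the authors scaled by DESeq2 size factors, called normalized reads here. Dividing by the smallest step gave whole reads for 100% of values within a tolerance of 0.01, and 6667 genes were called between library sets by edgeR on those reads and 1995 between chambers.

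Symbols were matched to older names through RefSeq (GRCm38.p6) and to GENCODE M21 models. Of 70 RefSeq genes with such a name, 69 are among the symbols. The counting could split reads among near-identical histone genes, so each model's 50-base stretches were compared with all other models. Values were tested as log2(normalized reads + 1) with limma 3.58.1 (R 4.3.3, trend, robust, two-sided), with Benjamini-Hochberg adjustment at 0.05 over 12422 genes with a mean of at least 10. That scale understates changes of genes with few reads. Log2 differences are given ± SE, folds are ratios of means, and intervals and zero limits cover counting error only. The script was tested on simulated data. Replicates of a chamber differed by more than sampling noise in every pair, the lowest chi-square per degree of freedom being 2.22.

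Members and lists were chosen with earlier results of these data known. The 60 members under current symbols were added after the data had been seen. Named are members called between chambers, the 10 of highest mean, up to 10 with the largest called difference each way between library sets, and those with a called interaction, plus the 9 found by symbol. The other genes named were chosen after their values were seen. Of other lists up to 6 called genes were eligible. Same-numbered libraries deviated together from their chamber means, with correlations of 0.582, 0.637, 0.623, 0.556 and 0.631 for numbers 1 to 5, all above the 0.1 required for using the number as a block. With the library set removed they were 0.405 for numbers 1 and 2 and -0.0394, 0.00205 and 0.0678 for 3, 4 and 5, so within replicates 3 to 5 they give no sign of pairing and the block mostly stands for the library set. Alternatives were edgeR 4.0.16, DESeq2 1.42.0, TMM factors, other totals, pseudocounts and filters, a block, and leaving libraries out.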

Additional observations from a re-analysis of the deposited data

Results flagged for a closer look

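Among 38 groups of 5 libraries examined, 4 had a library far from the others by Dixon's test. Each group joins both library sets and some hold mostly counts of 0, so the usual rate of about 1 in 20 does not apply. The 4 groups flagged belong to 3 genes with few reads. Hist1h2an was at 0 in ventricular library 1, below the other ventricular libraries, where a count of 0 allows 10.4 normalized reads. Hist1h2bp reached 20.8 normalized reads in ventricular library 1. Hist1h4m reached 2.88 in atrial library 2 and 0.618 in ventricular library 5, which is 2 reads and 1 read. The other ventricular libraries stood at 0 for Hist1h4m, where a single read is always flagged.

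H2bc15 had chamber differences of opposite direction in the library sets, with a difference between them of log2 1.46 (adjusted p = 0.0340 by limma).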

How the results depend on the processing

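The family's difference between library sets kept its direction under all alternatives run, with 27 to 33 of 36 tested members called higher, against 30, and 0 lower wherever the filter was kept. H3c6 lost its call in 8 alternatives, and H2ac13 and H4c14 in ventricular libraries alone. Leaving out libraries gave 29 to 32 for the family and 5896 to 7261 over all genes. Of the 9 genes found by symbol, 2 were called without the filter and with a mean of at least 1, against 1 with it. Between chambers, genes called moved from 1824 to 4017 with the replicate block, 3955 with the library set as a term, 6561 within replicates 3 to 5 and 638 within replicates 1 and 2, and 1365 to 2143 on leaving out libraries. Family members called moved from 0 to 5, 6 and 14 in the first 3 of these and stayed at 0 in the last and on leaving out libraries. The count of members with unequal chamber differences was 0 to 5 on leaving out libraries, against 1. The cause of these changes was not tested. Of named members' values, 345 for the library sets kept side and direction. For chambers 275 did, 68 changed sign uncalled and 17 became called. For the difference between sets 267 did, 25 changed sign uncalled, 7 lost the call and 1 gained it. Alternatives counted over the family were chosen after seeing the data. Members with a mean under 10 rest on few reads, and near-identical copies limit what can be assigned to any single gene.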
